A study of Arabidopsis thaliana with 12 samples.

Results

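PYR1 and PYL1 to PYL9 are 10 genes of *Arabidopsis thaliana* for the soluble receptors of the stress hormone abscisic acid (ABA), and they were taken by locus number from the 32678 genes of the count table. RNA-seq measured them in rosette leaves of Col-0 plants that were 28 to 35 days old, either leaf 7 (L7, old) or leaf 12 (L12, young). Plants grew at 22 °C and 60% relative humidity with 10 h of light and later with 12 h of light. ABA at 500 µM or the mock solution was sprayed onto the leaves, each in 0.5% ethanol with Tween 20, and leaves were harvested 48 h later. The 4 groups (mock L7, ABA L7, mock L12 and ABA L12) had 3 libraries each, labelled as replicates 1 to 3. All plants were of the same wild-type accession, ABA was supplied from outside at a single concentration, and whole leaves were used, so fewer cells of a type and less RNA per cell cannot be told apart.

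When ABA occupies the pocket of a PYR/PYL protein, a gate loop closes and the receptor binds and inhibits a clade A protein phosphatase 2C (PP2C). The SnRK2 kinases that the phosphatase had held inactive then phosphorylate transcription factors and ion channels, which in leaves leads to stomatal closure and to the induction of stress genes. The family is divided into subfamily III (PYR1, PYL1, PYL2 and PYL3, which form dimers when ABA is absent), subfamily II (PYL4, PYL5 and PYL6) and subfamily I (PYL7, PYL8 and PYL9), whose members are mostly monomers that can bind phosphatases at low ABA. Transcripts of many receptor genes are known to decline, and those of the phosphatases to rise, when ABA is applied.

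The members are PYR1 (AT4G17870), PYL1 (AT5G46790), PYL2 (AT2G26040), PYL3 (AT1G73000), PYL4 (AT2G38310), PYL5 (AT5G05440), PYL6 (AT2G40330), PYL7 (AT4G01026), PYL8 (AT5G53160) and PYL9 (AT1G01360). Their gene models in RefSeq's annotation of TAIR10.1 share a structure within subfamilies. The 7 genes of subfamilies III and II have 1 exon each and the 3 genes of subfamily I have 3 exons, and 20.5% of 27443 protein-coding nuclear genes have 1 exon. PYL7 overlaps AT4G01030 by 571 bases and AT4G03845 by 269 bases on the other strand. Whether strand was used in counting is not given in the sources used here, so the counts of PYL7 are uncertain where these genes overlap. No other member overlaps an annotated gene.

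The upstream sequences of subfamily II are shown because PYL5 was called in both leaves and PYL4 and PYL6 varied with it across libraries. Each run is the 250 bases before the annotated gene start on the gene's own strand, in which capitals would mark ACGTG or its reverse complement CACGT, the core of the element bound by ABA-responsive bZIP factors.
PYL4 (chr2:16049668-16049917, plus strand): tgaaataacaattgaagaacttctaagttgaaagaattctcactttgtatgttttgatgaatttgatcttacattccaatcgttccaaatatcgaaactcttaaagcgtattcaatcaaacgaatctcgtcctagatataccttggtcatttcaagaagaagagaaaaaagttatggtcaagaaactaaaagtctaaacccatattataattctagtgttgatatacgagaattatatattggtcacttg
PYL5 (chr5:1608738-1608987, plus strand): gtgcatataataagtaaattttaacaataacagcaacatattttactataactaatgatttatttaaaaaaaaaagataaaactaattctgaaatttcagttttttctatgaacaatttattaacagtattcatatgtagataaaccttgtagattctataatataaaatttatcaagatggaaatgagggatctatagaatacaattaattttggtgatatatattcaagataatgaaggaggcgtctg
PYL6 (chr2:16846195-16846444, minus strand): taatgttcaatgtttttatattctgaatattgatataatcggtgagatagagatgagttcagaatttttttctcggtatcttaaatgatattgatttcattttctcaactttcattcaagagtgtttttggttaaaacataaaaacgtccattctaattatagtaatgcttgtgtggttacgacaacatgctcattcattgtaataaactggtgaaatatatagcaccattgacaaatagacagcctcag
The windows of PYL4, PYL5 and PYL6 hold no such core. Among the 9 PYL members it was found in 2 (PYL3 and PYL7), against 22.9% of the 27443 genes with a window of the same length, both strands searched. Of these, PYL7 alone holds CACGTG, which reads as ACGTG on both strands and was counted on each, and 6.49% of genes hold it. A match describes letters in this window only.

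Libraries held 11811137 to 21485394 counts on genes (median 17877044). A gene was called where edgeR's quasi-likelihood test gave a Benjamini-Hochberg adjusted p below 0.01, over the 18291 genes tested, and a log2 fold change beyond 1. Of 5 ABA response genes that checked the treatment, 1 was called higher in L7 (0.935% of tested genes) and 4 in L12 (1.47%), COR15A in neither. At an adjusted p below 0.05 alone, 3 were higher in L7 and 4 in L12, against 893 and 985 of all 18291 tested genes. RAB18, a dehydrin gene induced by ABA, was called higher in both leaves. It rose by 3.36 on the log2 scale in L7 (adjusted p 0.000862, edgeR) and by 4.68 in L12 (adjusted p 0.000214). After mock, RAB18 and COR15A were called lower in L12 than in L7 (8.1% of tested genes), with log2 fold changes of −1.78 and −1.65. Mesophyll marker genes were the most abundant of the marker lists, with summed levels of 10200 to 49700 CPM (counts scaled to library size) in all libraries, while the summed root, flower and seed markers stayed at or below 1.95, 1.32 and 0.259 CPM. Deviations of libraries from their group means were related to the length of the transcript. The relation was negative for libraries of replicate 3 (rho across genes −0.564 to −0.394, Spearman) and positive for those of the other replicates (0.0196 to 0.577). Deviations cancel over the libraries of a group, so these values do not show which replicate stood apart.

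Levels per transcript length (RPKM, counts scaled to library size with TMM factors and to the length of the longest annotated transcript) showed which receptors made up the pool. In mock L7, PYR1 at 60.8 ± 9.16 (SD, n = 3) and PYL8 at 59.1 ± 21.1 RPKM led the order, and their ranges overlapped. PYL5, PYL1, PYL4, PYL7 and PYL9 followed with means of 30.2, 24.9, 23.8, 17.8 and 9.32 RPKM, each overlapping its neighbour. A gap then separated PYL9 from PYL2 (1.02 RPKM) and PYL6 (0.63 RPKM). In mock L12 the order began with PYR1 at 33.3 ± 11.9 RPKM and PYL4 at 32.9 ± 32.7 RPKM, and the first 6 genes again overlapped their neighbours.

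After ABA the order was different. In ABA L7, PYR1 at 22.8 ± 3.29 RPKM stood above PYL7, PYL1 and PYL8, whose means were 14.3, 13.0 and 12.4 RPKM. In ABA L12, PYL7 at 16.8 ± 3.28 RPKM was first, overlapping PYR1 at 13.9 ± 1.60 RPKM. PYL9 and PYL8 came next at 7.49 and 7.16 RPKM and overlapped, and PYL1, PYL4, PYL2, PYL5 and PYL6 were all at or below 5.37 RPKM in every library. PYL7 was the most abundant receptor transcript in all 3 ABA L12 libraries and in none of the other 9.

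**Figure D1:**
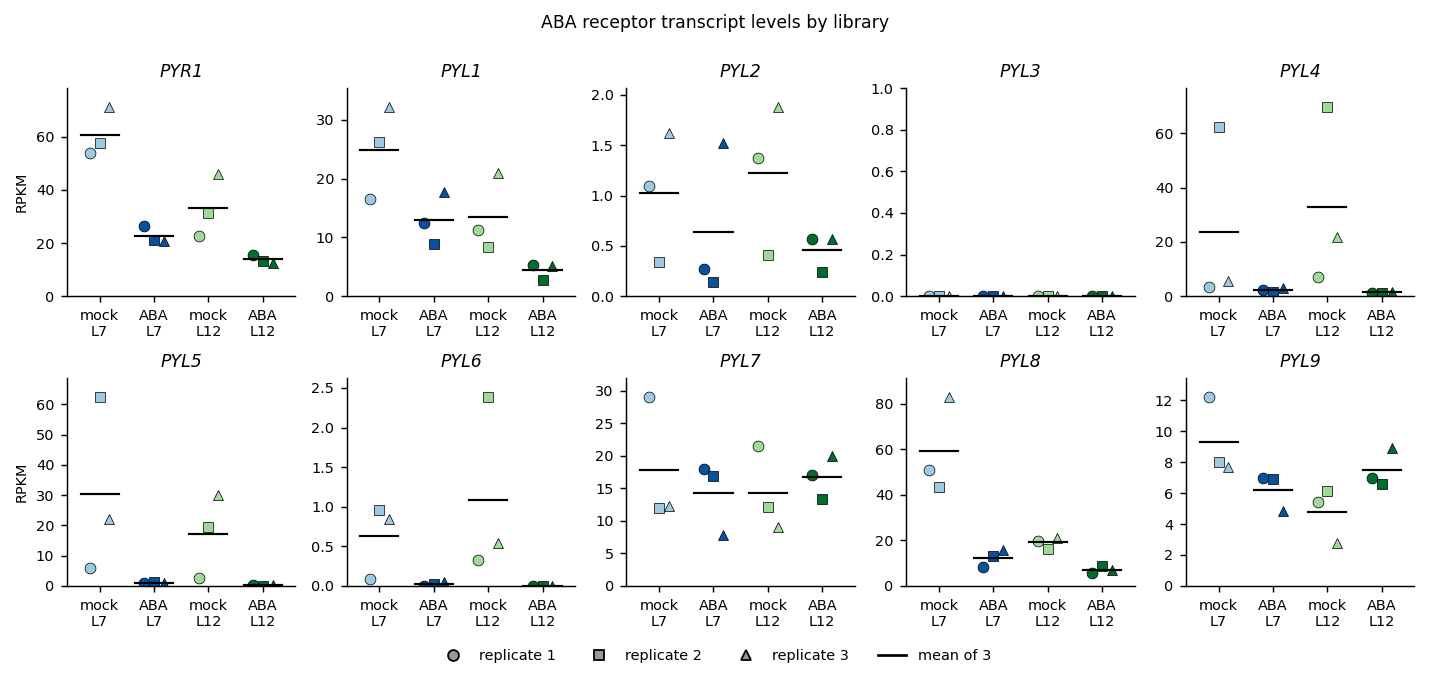
Levels of the 10 receptor genes (vertical axes, RPKM, from 0, scaled per gene) in the 12 libraries, by group (horizontal axis), with marker shapes for replicates and a bar for the mean of 3. PYR1, PYL5 and PYL8 of ABA libraries lie below the mock libraries of the same leaf, PYL7 does not separate, and PYL3 is at 0 throughout.

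Within subfamily III, PYR1, the receptor found through resistance to the synthetic agonist pyrabactin, measured 53.8, 57.4 and 71.2 RPKM in mock L7 and 26.6, 21.0 and 20.7 RPKM in ABA L7 for replicates 1 to 3. In L12 it measured 22.6, 31.4 and 46.1 RPKM with mock and 15.7, 13.3 and 12.6 RPKM with ABA. The groups did not overlap in either leaf. PYR1 fell by 1.40 on the log2 scale in L7 (SE 0.261, adjusted p 0.00934, edgeR). Its log2 fold change in L12 was −1.24 (SE 0.262), and the adjusted p of 0.0128 missed the threshold.

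PYL1, which is closest to PYR1 in sequence, measured 16.5, 26.2 and 32.2 RPKM in mock L7 and 12.4, 8.94 and 17.8 RPKM in ABA L7. The highest ABA library exceeded the lowest mock library, and the log2 fold change of −0.99 was not called (SE 0.297, adjusted p 0.0568, edgeR). In L12 the values were 11.3, 8.34 and 21.0 RPKM with mock and 5.37, 2.72 and 5.11 RPKM with ABA, without overlap. PYL1 fell by 1.56 on the log2 scale there (SE 0.303, adjusted p 0.00898).

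PYL2, which has a part in the ABA response of guard cells, had few counts. It held 4 to 41 counts per library, 0.139 to 1.88 RPKM, and its log2 fold changes of −0.93 in L7 (95% interval −2.09 to 0.23, adjusted p 0.264, edgeR) and −1.26 in L12 (95% interval −2.37 to −0.16, adjusted p 0.107) were not called. PYL3 had 0 of 211715987 counts, which allows up to 0.0142 CPM over the 12 libraries and covers counting error only, and it was not tested.

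The genes of subfamily II had a wide spread among mock replicates. PYL4, a receptor linked to jasmonate-elicited metabolism, measured 3.55, 62.2 and 5.52 RPKM in mock L7 and 2.46, 1.71 and 3.02 RPKM in ABA L7. In L12 it measured 7.12, 69.7 and 22.0 RPKM with mock and 1.37, 1.21 and 1.68 RPKM with ABA. Replicate 2 of the mock group was the highest library in both leaves, and the other replicates were closer to the ABA level. The mock level exceeded the ABA level of the same replicate 1.44-, 36.4- and 1.83-fold in L7 and 5.19-, 57.7- and 13.1-fold in L12. PYL4 was not called in either leaf, with log2 fold changes of −2.28 (SE 0.895, adjusted p 0.126, edgeR) and −3.87 (SE 0.894, adjusted p 0.0186). Without mock L7 replicate 2 the log2 fold change in L7 was −1.06, and without all libraries of replicate 2 it was −0.68.

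PYL5, whose overexpression is known to raise drought resistance, measured 6.06, 62.6 and 22.0 RPKM in mock L7 and 0.861, 1.22 and 0.980 RPKM in ABA L7. In L12 it measured 2.57, 19.3 and 29.9 RPKM with mock and 0.179, 0.0868 and 0.393 RPKM with ABA. Every ABA library lay below every mock library of the same leaf. PYL5 fell by 4.40 on the log2 scale in L7 (SE 0.741, adjusted p 0.00595, edgeR). In L12 it fell by 5.95 (SE 0.836, adjusted p 0.0022). PYL5 had 6, 3 and 14 counts in the ABA L12 libraries, so the size of its fall there rests on few counts. The size also depended on the libraries. In L7 the log2 fold change was −5.28 without replicate 1, −3.51 without replicate 2, −3.54 without mock L7 replicate 2 and −5.18 without ABA L7 replicate 1. In L12 it was −6.65 without replicate 1, −5.19 without mock L12 replicate 3 and −5.22 without ABA L12 replicate 2.

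PYL6, a receptor that binds the jasmonate factor MYC2, had 2, 14 and 17 counts in the mock L7 libraries and 0, 1 and 1 in ABA L7. It had 12, 95 and 12 counts in mock L12 and 0 in each ABA L12 library. The pooled mock to ABA ratio in L7 was 24.4 (95% counting interval 6.24 to 210.0, which covers counting error only). In L12, with a floor of 3 counts over the group, PYL6 was at least 43.4-fold lower after ABA. This bound rested on mock L12 replicate 2 and was 14.6-fold without it. The mean of 12.8 counts passed the filter of 10 only through the mock libraries, since the ABA libraries averaged 0.333. The ABA values of PYL6 are therefore given as a description, with no test.

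The 3 genes were correlated across libraries. The Pearson correlation of their log2 CPM over the 12 libraries was 0.876 for PYL4 with PYL5, 0.921 for PYL4 with PYL6 and 0.893 for PYL5 with PYL6. After removal of the group means it was 0.787, 0.758 and 0.692. Such values over the 12 libraries were not particular to subfamily II. PYR1 reached 0.906 with PYL8, 0.897 with PYL5 and 0.874 with PYL1, and −0.0251, 0.561 and 0.519 after removal of the group means. These values share the libraries and their scaling and are a description.

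In subfamily I, PYL8 was called in both leaves and PYL7 and PYL9 in neither. PYL8, the receptor known for ABA responses of roots, measured 50.7, 43.6 and 83.1 RPKM in mock L7 and 8.40, 13.2 and 15.5 RPKM in ABA L7. In L12 it measured 19.9, 16.4 and 21.2 RPKM with mock and 5.47, 8.87 and 7.15 RPKM with ABA. Neither pair of groups overlapped. PYL8 fell by 2.26 on the log2 scale in L7 (SE 0.27, adjusted p 0.00141, edgeR) and by 1.43 in L12 (SE 0.265, adjusted p 0.00723).

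PYL7 measured 29.1, 12.0 and 12.3 RPKM in mock L7 and 18.1, 16.9 and 7.87 RPKM in ABA L7. In L12 it measured 21.6, 12.1 and 9.09 RPKM with mock and 17.1, 13.4 and 19.9 RPKM with ABA. The groups overlapped in both leaves. The log2 fold changes were −0.25 in L7 (95% interval −1.01 to 0.50, adjusted p 0.651, edgeR) and 0.37 in L12 (95% interval −0.38 to 1.12, adjusted p 0.453). The sign in L7 turned with scaling by library size only (0.20).

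PYL9, known for promoting senescence of old leaves in drought when overexpressed, measured 12.2, 8.02 and 7.69 RPKM in mock L7 and 6.96, 6.91 and 4.82 RPKM in ABA L7. In L12 it measured 5.41, 6.14 and 2.79 RPKM with mock and 6.98, 6.57 and 8.91 RPKM with ABA. ABA libraries lay below mock in L7 and above mock in L12, without overlap in either leaf. Neither log2 fold change was called, at −0.58 in L7 (95% interval −1.25 to 0.10, adjusted p 0.234, edgeR) and 0.70 in L12 (95% interval 0.02 to 1.38, adjusted p 0.135).

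**Figure D2:**
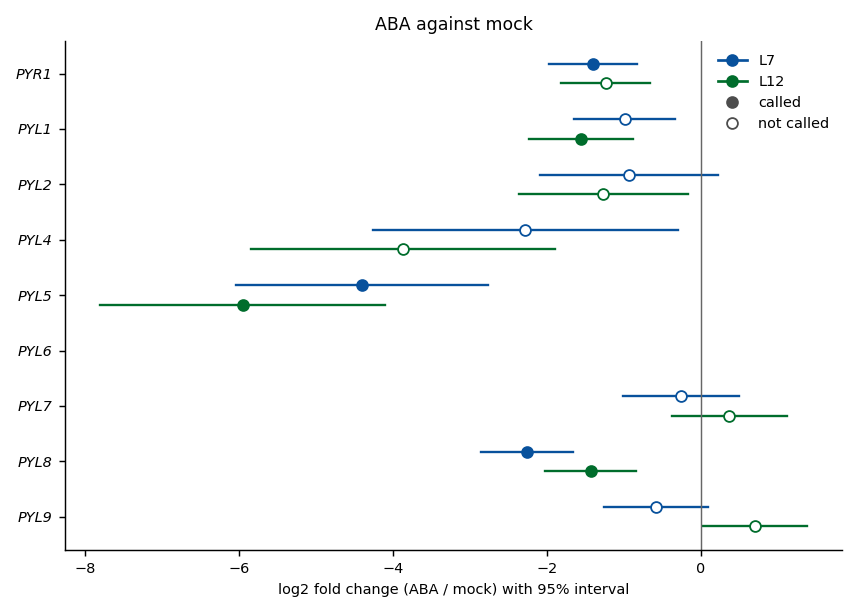
Log2 fold changes of ABA over mock (horizontal axis) with 95% intervals in L7 and L12 for 8 receptor genes from edgeR's fit of 12 libraries, filled where called. PYL6 has no point because of its 0 counts after ABA and PYL3 was not tested; PYL5 lies farthest to the left, at −4.40 and −5.95, and the PYL7 intervals span 0.

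In L7, ABA lowered 3 members (PYR1, PYL5 and PYL8) of the 8 tested apart from PYL6 and raised 0, where 2% of all tested genes were called lower and 0.935% higher. With the threshold set at an adjusted p below 0.05 alone, 3 of the 8 were lower, against 6.63% of tested genes. The ABA group lay below the mock group without overlap for 5 of the 8, against 9.59% of tested genes. Their median log2 fold change was −1.19 and that of all tested genes 0.03. Each of the 3 calls depended on the libraries used. Of 15 fits that left out a replicate number or a single library, PYR1 lost its call in 12, PYL5 in 9 and PYL8 in 5. Their adjusted p (edgeR) reached 0.0781, 0.0637 and 0.0426, each without replicate 3. Calls over all tested genes also varied in these fits. With all libraries 171 genes were called higher and 366 lower, and without replicate 3 0 were called. The most were 359 higher and 539 lower, without mock L12 replicate 2.

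In L12, ABA lowered 3 of the same 8 members (PYL1, PYL5 and PYL8) and raised 0, where 3.08% of tested genes were called lower and 1.47% higher. At an adjusted p below 0.05 alone, 5 of the 8 were lower, against 9.26% of tested genes. For 5 members the ABA group lay below the mock group without overlap (16.9% of tested genes) and for PYL9 above it (13.2%). Their median log2 fold change was −1.35 and that of all tested genes 0.03. PYL1 lost its call in 12 of 15 fits with libraries left out (adjusted p up to 0.173, edgeR, without replicate 3). PYL8 lost it in 11 (up to 0.118, without replicate 1) and PYL5 in 3 (up to 0.0413, without replicate 3). Over all tested genes 0 were called in L12 without replicate 3, and 20 higher and 63 lower without replicate 1. The most in these fits were 1120 higher and 944 lower, without mock L12 replicate 2. Without the replicate block in the model, 1 member was called in L7 and 0 in L12. Over all tested genes that model called 13 higher and 37 lower in L7, against 171 and 366 with the block. In L12 it called 67 higher and 72 lower, against 268 and 563 with the block.

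Transcripts of mesophyll marker genes moved with the same treatment. The summed level of the 4 markers ranged from 25600 to 47100 CPM in mock L7 and from 10200 to 16000 CPM in ABA L7, and from 27200 to 49700 CPM in mock L12 and from 14300 to 22100 CPM in ABA L12. LHCB2.1, a light-harvesting protein gene, fell in both leaves (log2 fold changes −2.76 and −1.77, adjusted p 0.00131 and 0.00592, edgeR) and LHCB1.1 in L7 (−2.40, adjusted p 0.0075). RBCS1A and RCA were not called in either leaf. Guard cell markers had summed levels of 13.3 to 29.7 CPM in mock L7 and 17.3 to 21.2 CPM in ABA L7, and 0 of 6 were called by ABA in either leaf. These sums mix both directions. In L7, 4 markers had negative and 2 positive log2 fold changes (−1.44 to 1.44), and in L12 3 and 3 (−1.30 to 1.06). At an adjusted p below 0.05 alone, 1 was lower in L12, against 9.26% of tested genes. The part of the mesophyll and guard cell markers in the receptor changes was not tested.

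The response to ABA was not shown to differ between the leaves for any receptor gene. The difference of the log2 fold changes, L12 minus L7, ranged from −1.59 for PYL4 to 1.28 for PYL9. PYL6 was left out, since its fitted value rests on libraries without counts. Of the other 8 tested members 0 were called, with 0% of all tested genes called. An unadjusted p below 0.05 was found for 1358 of 18291 genes, among them PYL9 (1.28, SE 0.433, p 0.0136, adjusted p 0.558, edgeR) and PYL8 (0.83, SE 0.367, p 0.0468, adjusted p 0.667). DESeq2 and limma with voom also called 0 members. PYL8 fell from a mock level of 59.1 to 12.4 RPKM in L7 and from 19.2 to 7.16 RPKM in L12.

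Without ABA, 1 of 9 tested members was called between young and old leaves. PYL8 was lower in mock L12 than in mock L7, with a log2 fold change of −1.58 (SE 0.263, adjusted p 0.00272, edgeR), with all L12 libraries at or below 21.2 RPKM and all L7 libraries at or above 43.6 RPKM. It was called lower and 0 members were called higher, where 8.1% of tested genes were called lower and 6.8% higher. PYR1, PYL1 and PYL9 had log2 differences of −0.88, −0.97 and −0.97 with adjusted p of 0.0219, 0.0256 and 0.0294, short of the threshold. At an adjusted p below 0.05 alone, 4 members were lower, against 20% of tested genes. The PYR1 and PYL9 groups did not overlap, and with PYL8 they made 3 members with L12 wholly below L7, against 17.3% of tested genes. The PYL8 call was lost in 6 of 15 fits with libraries left out (adjusted p up to 0.0317, edgeR, without replicate 3). Over all tested genes 0 were called without replicate 3, against 1244 higher and 1481 lower with all libraries. The most in these fits were 1268 higher and 1575 lower, without ABA L12 replicate 3.

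With ABA, PYL1 was lower in L12 than in L7, with a log2 fold change of −1.54 (SE 0.302, adjusted p 0.00842, edgeR). Its 3 L12 libraries reached at most 5.37 RPKM and its 3 L7 libraries at least 8.94 RPKM. This was the 1 member called lower, where 3.68% of tested genes were called lower, and 0 were called higher, where 3.12% were. PYL5 and PYL8 had log2 differences of −2.39 and −0.76 with adjusted p of 0.0497 and 0.0439 (edgeR). For PYL5 the ABA L12 libraries held 6, 3 and 14 counts. At an adjusted p below 0.05 alone, 3 members were lower, against 17.8% of tested genes, and 4 members lay wholly lower in L12, against 23.8% of tested genes. The PYL1 call was lost in 11 of 15 fits with libraries left out (adjusted p up to 0.0843, edgeR, without replicate 3). Over all tested genes 0 were called without replicate 1 or replicate 3, against 570 higher and 674 lower with all libraries. The most in these fits were 2048 higher and 1252 lower, without mock L12 replicate 2. The 3 epidermis markers moved with leaf age, with summed levels of 31.6 to 70.9 CPM in mock L7 and 78.2 to 166 CPM in mock L12, and 47.9 to 85.4 CPM in ABA L7 and 107 to 165 CPM in ABA L12, and PDF1 and PDF2 were called higher in L12 in both treatments. All 6 guard cell markers had positive log2 fold changes in L12 against L7, of which 4 after mock and 3 after ABA had an adjusted p below 0.05 and 0 were called. Their sums were 28.6 to 67.7 CPM in mock L12 and 37.0 to 47.6 CPM in ABA L12, and the latter lay above ABA L7. The summed phloem companion cell markers overlapped after mock (273 to 375 CPM in L7 and 219 to 335 CPM in L12) and lay lower in L12 after ABA (297 to 333 CPM in L7 and 168 to 217 CPM in L12), with 0 of 2 called. The part of these markers in the receptor differences was not tested.

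**Figure D3:**
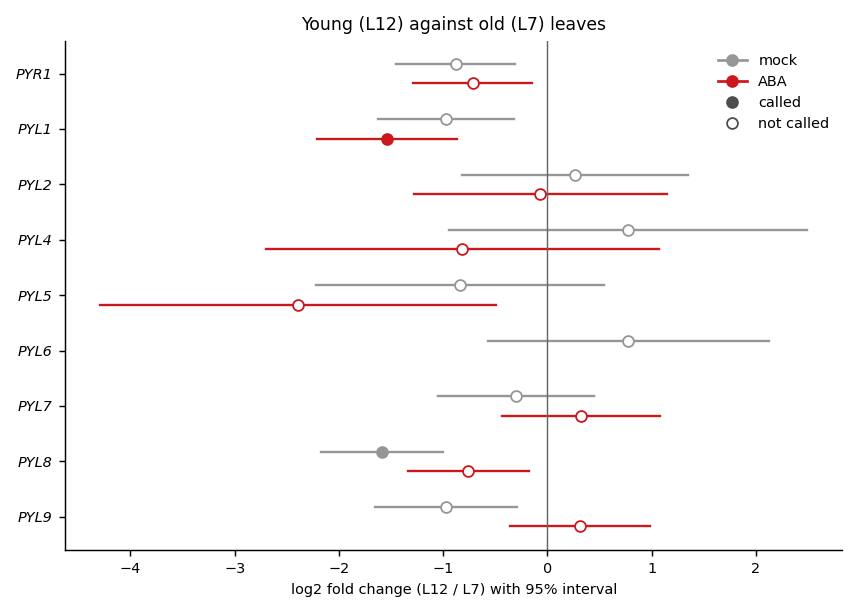
Log2 fold changes of L12 over L7 (horizontal axis) with 95% intervals after mock and after ABA for the receptor genes from the same fit, filled where called. PYL8 was called after mock (−1.58) and PYL1 after ABA (−1.54); PYL6 has no point after ABA because of its 0 counts in ABA L12.

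The summed receptor transcript level was lower in every ABA library than in the mock libraries of the same leaf. The 10 genes summed to 173.1, 273.3 and 236.4 RPKM in mock L7 and to 75.97, 70.1 and 72.32 RPKM in ABA L7. In L12 the sums were 92.11, 166.2 and 154.5 RPKM with mock and 52.69, 46.4 and 56.37 RPKM with ABA. The ABA sums varied less among replicates. Subfamily II held 21.2 ± 21.7% of the sum in mock L7 (SD, n = 3) and 33.3 ± 22.1% in mock L12, with the mock libraries between 5.60% and 55.0%. After ABA it held 4.73 ± 0.763% in L7, where the ranges just overlapped, and 3.14 ± 0.477% in L12, where they did not. Subfamily I held 40.0 ± 15.3% in mock L7 and 45.3 ± 7.02% in ABA L7, which overlapped, and 31.0 ± 17.2% in mock L12 and 60.7 ± 4.10% in ABA L12, which did not. PYL7 and PYL9 together held 43.1% to 51.2% of the sum in ABA L12 and 7.69% to 29.3% in mock L12, while in L7 the ranges of 7.32% to 23.9% with mock and 17.6% to 34.0% with ABA overlapped. These shares were not tested.

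**Figure D4:**
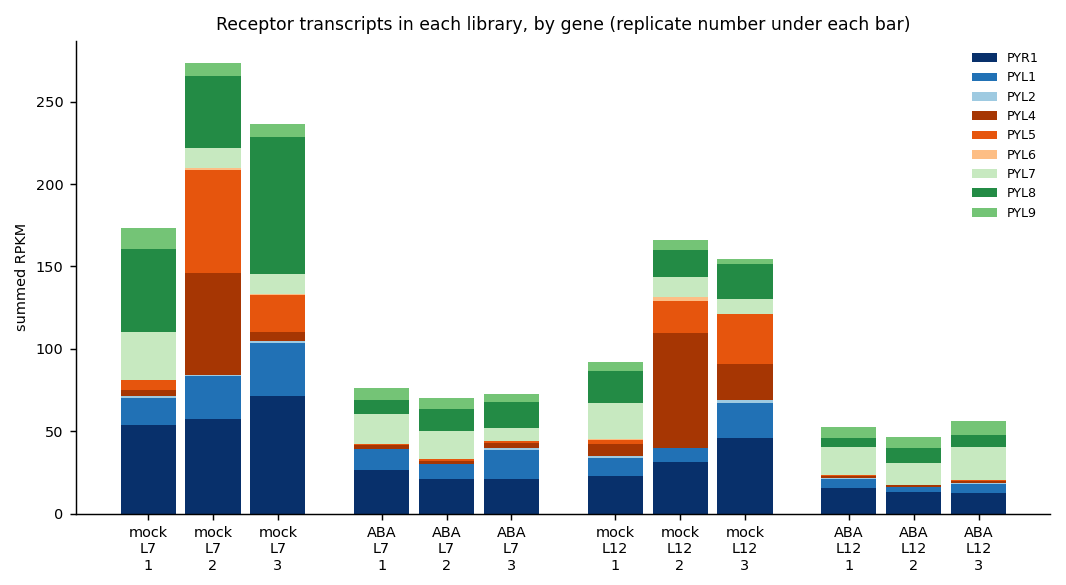
Stacked RPKM of the receptor genes (vertical axis, from 0) in each of the 12 libraries, with the group and the replicate number under each bar. The bars of ABA libraries reach 46.4 to 75.97 RPKM against 92.11 to 273.3 RPKM with mock, and the orange PYL4 and PYL5 segments of mock replicate 2 are the tallest of their kind in L7.

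Of the 9 clade A PP2C genes 7 were tested, and 1 was called higher in L7 (0.935% of all tested genes) and 3 in L12 (1.47%). All 7 had positive log2 fold changes in both leaves, with medians of 1.04 in L7 and 2.15 in L12. In L7, HAI1, an ABA-induced PP2C, rose by 2.78 on the log2 scale (SE 0.465, adjusted p 0.00581, edgeR), although its groups overlapped. In L12, HAI1 rose by 4.11 (adjusted p 0.000961, edgeR) and HAI2 by 5.05 (adjusted p 0.00101) on the log2 scale, and ABI2, a co-receptor known from ABA-insensitive mutants, rose 4.60-fold (adjusted p 0.00234). In young mock leaves HAI1 was lower than in old ones, with a log2 fold change of −2.61 (adjusted p 0.00335).

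The ratio of summed receptor to summed PP2C levels, both in RPKM, was 0.469 to 0.839 in mock L7 and 0.0688 to 0.205 in ABA L7. It was 0.604 to 1.65 in mock L12 and 0.0930 to 0.153 in ABA L12. The mock and ABA libraries did not overlap in either leaf. PP2C sums alone did overlap in L7, at 311.1 to 504.4 RPKM with mock and 370.6 to 1052 RPKM with ABA.

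**Figure D5:**
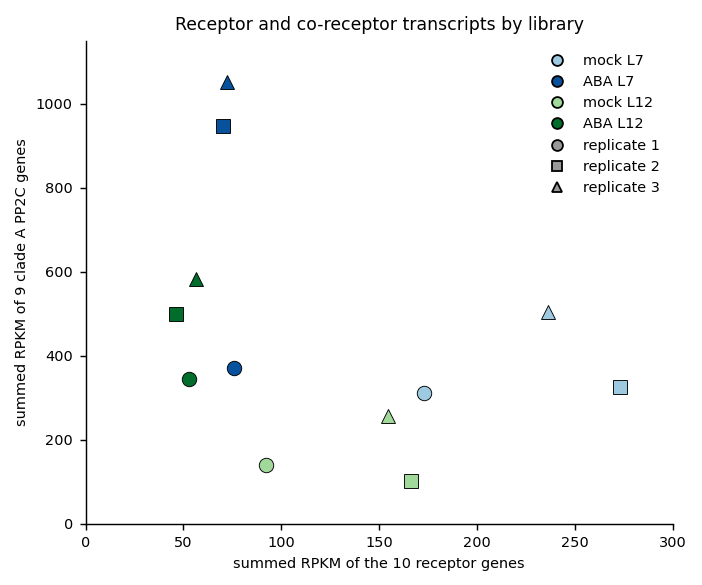
Summed RPKM of the 9 clade A PP2C genes (vertical axis) against the summed RPKM of the 10 receptor genes (horizontal axis), with 1 point per library, colours for groups and shapes for replicates. The 6 ABA libraries lie at receptor sums of 46.4 to 75.97 RPKM and the 6 mock libraries at 92.11 or more.

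Other genes of the pathway were mostly not called. PYL10, PYL12 and PYL13 had 0 counts, PYL11 had 6 counts in 4 ABA libraries, and none of these 4 was tested. Of the 5 SnRK2 kinase genes tested, 0 were called by ABA in either leaf. At an adjusted p below 0.05 alone, 1 was lower in L7 (6.63% of tested genes) and 0 in L12 (9.26%). This gene, SNRK2.8, had log2 fold changes of −2.16 in L7 (adjusted p 0.0228, edgeR) and 0.17 in L12 (adjusted p 0.819), with overlapping groups in both leaves. Its difference between the leaves was not called (adjusted p 0.517). Among 10 tested genes for receptor turnover and membrane recruitment, PUB22, an E3 ubiquitin ligase gene known to target PYL9, fell by 3.58 on the log2 scale in L12 (adjusted p 0.00107, edgeR). It was also 2.24 higher on the log2 scale in mock L12 than in mock L7 (adjusted p 0.00402), and the other 9 genes were not called in these comparisons. Of all tested genes, 3.08% were called lower by ABA in L12 and 6.8% higher in mock L12. At an adjusted p below 0.05 alone, ABA lowered 1 of the 10 in L7 (6.63% of tested genes) and 3 in L12 (9.26%). Besides PUB22, those in L12 were PUB23 (log2 fold change −2.73, adjusted p 0.015, edgeR) and VPS23A (−1.11, adjusted p 0.0342). Of 3 MYB genes whose proteins bind PYL8 or PYL9, MYB77 fell by 2.79 on the log2 scale in L12 (adjusted p 0.0071), although its groups overlapped.

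Genes whose log2 CPM followed a receptor most closely over the 12 libraries were sought for the 3 members of highest mean RPKM. For PYR1 they were TIFY10B, RL6 and AT5G17165, with Pearson correlations of 0.974, 0.966 and 0.962. For PYL8 they were AT1G22900, AT5G44910 and AT1G30250 with 0.974, 0.960 and 0.958. For PYL7 they were AT3G07310, AT5G57300 and AT4G28370 with 0.941, 0.910 and 0.900. After removal of group means the PYR1 values were 0.840, 0.613 and 0.682, the PYL8 values 0.785, 0.376 and 0.644 and the PYL7 values 0.956, 0.920 and 0.919. PYL7 also correlated with PYL9, at 0.691 over the libraries and 0.800 within groups, in libraries that differed by replicate in their trend with transcript length.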

How the data were processed

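RNA-seq was analysed for 12 libraries in 4 groups of 3, mapped to groups by their labels. Per the labels and the study's methods, poly(A) RNA was made into strand-marking libraries. The submitters' processing notes name CASAVA 1.8.2, cutadapt 1.5, TopHat2 2.0.10, HTSeq 0.6.1 and the build TAIR10. How HTSeq was set (mode, strand) is not given in the sources used here. Raw whole-number counts for each gene were deposited by the authors, and 5 summary lines (5.97% to 10.3% of a library) were left out. Members and lists were chosen with earlier results of these data known.

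Of 32678 genes, 18291 whose mean count reached 10 were tested in R 4.3.3 with edgeR 4.0.16 (TMM factors, quasi-likelihood F-test, Benjamini-Hochberg adjustment) in 1 model of the 4 groups with the replicate number as a block, which the study's model includes. Calls needed an adjusted p under 0.01 together with a log2 change beyond 1, with prior counts of 0.125 for log2 fold changes and 2 for log2 CPM. The authors' own tests were limma-voom with q-values. P-values weigh a difference against the spread left among these libraries after groups and replicate numbers were fitted. Intervals are 95% intervals. In a check of the pairing, deviations of libraries from their group means were correlated between groups. The 18 same-numbered pairs had values of −0.0234 to 0.65 (median 0.361, 16 over 0.1). The 36 differently numbered pairs had values of −0.651 to 0.461 (median −0.217, 7 over 0.1). Deviations cancel over the libraries of a group, so positive values for same numbers bring negative ones for different numbers. Libraries within a group differed in counts by more than sampling noise (chi-square per degree of freedom 30.9 to 259).

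RPKM used TMM-scaled sizes and the longest transcript of RefSeq's TAIR10.1 annotation, which had a model for 31904 genes. Upstream sequences are from the same assembly, and that of PYR1 is not reported here. Named were all members, genes of the lists that were called, the 4 other family genes, and the 3 genes most correlated with each of the 3 members of highest mean RPKM. SNRK2.8, PUB23 and VPS23A were named in addition. Alternatives were limma 3.58.1 with voom, DESeq2 1.42.0, no block, other filters (none, or a mean of 50 counts), RLE factors, library size only, only the compared groups, a threshold of 0.05, a spline for transcript length and GC content, coding length, and leaving out each replicate number or library. Counts without PYL6, and its bound with each mock L12 library left out, were added after the data had been seen.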

Additional observations from a re-analysis of the deposited data

Results flagged for a closer look

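PYL9 stood out because its replicates moved in opposite directions in the leaves. In all 3 replicates the ABA library was below the mock library in L7 and above it in L12, and the difference of the log2 fold changes was 1.28 (SE 0.433). The test of this difference, edgeR's quasi-likelihood test, gave p 0.0136 and an adjusted p of 0.558 over 18291 genes, so the difference was not called.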

How the results depend on the processing

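Counts of called receptor genes, here with PYL6, which passed the filter only through the mock libraries, were 3 in L7 and 4 in L12 for ABA against mock (3 and 3 without PYL6), and 1 for L12 against L7 after mock and after ABA. Without the replicate block they were 1, 0, 0 and 0. Over all tested genes the calls without the block were 13 higher and 37 lower in L7 and 67 and 72 in L12. For L12 against L7 they were 23 and 76 after mock and 6 and 6 after ABA. With library size only the receptor counts were 1, 2, 0 and 0. Under this setting the median of all tested genes was shifted to a log2 change of 0.486 (L7) and 0.419 (L12). Calls over all tested genes were then 208 higher and 160 lower in L7 and 318 and 252 in L12. For L12 against L7 they were 1050 and 601 after mock and 96 and 125 after ABA. With only the compared groups the receptor counts were 0 in L7 and 1 in L12. All-gene calls there were 2 higher and 31 lower of 17643 in L7, and 116 and 227 of 18357 in L12. With the length and GC spline the receptor counts were 2 in L12 and 0 for ABA-treated L12 against L7, where DESeq2 gave 2. The spline called 398 higher and 547 lower of all tested genes in L12. For ABA-treated L12 against L7 it called 276 and 384, and DESeq2 called 2521 and 1522 of 18291. At an adjusted p below 0.05 with no minimum fold the receptor counts were 4 after mock and 3 after ABA for L12 against L7. All were lower, against 20% and 17.8% of tested genes. Leaving out a replicate number or a library gave 0 to 4 in L7, 0 to 5 in L12, 0 to 1 for L12 against L7 after mock and 0 to 1 after ABA. The count of 0 for the difference between leaves stayed at 0 in every fit. Over all genes 0 were called in any comparison without replicate 3.

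Some uncalled values changed sign. With library size only, PYL7 was 0.20 for ABA in L7 and 0.037 for L12 against L7 after mock. PYL2 for L12 against L7 after ABA was 0.22 with library size only, 0.031 with only the compared groups and 0.23 with the spline. With libraries left out, PYL7 ranged from −0.66 to 0.0073 in L7 and from −0.11 to 0.70 in L12. The difference between leaves ranged from −0.077 to 0.46 for PYR1 and from −0.81 to 0.73 for PYL2. PYL5 for L12 against L7 after mock ranged from −1.56 to 0.054. After ABA, PYL2 ranged from −0.54 to 1.00, PYL7 from −0.18 to 0.71 and PYL9 from −0.071 to 0.50. The cause was not tested.

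PYL8 in L7 lost its call without replicate 1, without replicate 3, or without mock L7 replicate 3, ABA L7 replicate 1 or ABA L7 replicate 3. PYL5 in L12 lost it without replicate 3, ABA L12 replicate 2 or ABA L12 replicate 3. PYR1 in L7 kept it without any single mock L12 library and lost it in every other of these fits, and PYL5 in L7 kept it without any single L12 library and lost it in every other. The PYL6 bound in L12 ranged from 14.6 to 62.6 with mock L12 libraries left out. No weight is put on the PYL6 call within the counts above, since the gene passed the filter only through the mock libraries. PYL1 in L12 kept its call only without mock L7 replicate 1, mock L7 replicate 2 or mock L12 replicate 2. PYL8 in L12 kept it only without replicate 2, mock L7 replicate 2, mock L12 replicate 2 or ABA L7 replicate 1. For L12 against L7, PYL8 after mock lost its call without any replicate number, mock L7 replicate 1, mock L7 replicate 3 or mock L12 replicate 2. PYL1 after ABA kept its call only without mock L7 replicate 1, mock L7 replicate 2, mock L12 replicate 2 or mock L12 replicate 3. Apart from fits with libraries left out, 385 member results kept their direction and side of the threshold, 26 lost and 13 gained a call and 5 turned. Depth limits PYL2, PYL3 and PYL6, which had at most 41, 0 and 95 counts in a library.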
